A study of Mus musculus with 15 samples.

Results

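The interleukins and interleukin receptors measured here are the mouse genes whose symbol starts with Il and a digit, together with the few genes that share this form of name without being cytokines. A symbol was taken from the accession of each probe where it matched RefSeq, and other probes kept their own identifier. Each gene was read on its brightest probe, that is, the probe with the highest mean processed signal over all arrays. Of 82 genes of this name considered, 78 had a probe matched through its accession. All genes means the 32301 entries so named, of which 18213 are symbols and the rest unmatched identifiers, whereas every member is a symbol. Il11ra2, Il12b, Il1f8 and Il4i1b had no matched probe and were not analysed here, which does not show that the array lacks them.

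Expression was measured on 15 single-colour arrays, with 3 arrays in each of 5 groups. Heart allografts came from B10 donors and were placed in the abdomen of CBA recipients, and they were harvested on post-operative day 5 (POD5). Liver allografts came from B10.BR donors and replaced the liver of B10.D2 recipients, and they were harvested at POD5 or at POD8. The donor and recipient of each pair differed at the major histocompatibility complex, and no immunosuppressive agent is named for any group in the sources used here. The remaining groups were heart and liver controls, which the labels call normal tissue and other passages of the study call isografts, and whose strain is not given in the sources used here. Mice were male, and their age is not given in the sources used here. The liver controls served both time points, so the POD5 and POD8 comparisons of the liver share them. The study's text gives 3 samples for each group, and the labels do not tie an array to an animal. The p-values then measure the spread between these samples.

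Interleukins are the secreted signals by which leukocytes and tissue cells instruct one another, and most act through a receptor of a ligand-binding chain and a shared signalling chain. Receptors with the common gamma chain carry the growth signals of T cells and natural killer (NK) cells, those of interleukin 12 and interleukin 18 raise interferon gamma, and those of the interleukin 1 family drive inflammation. Soluble antagonists, decoy receptors and binding proteins hold several of these signals in check. In an unmodified allograft, T cells of the recipient enter the graft within days, and they carry many of these receptors. The arrays were hybridized with RNA of whole tissue, in which fewer cells of a type and less RNA per cell cannot be told apart.

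Levels are log2 processed intensities after quantile normalization over all 15 arrays, and a difference is between group means on that scale, with its standard error (SE) and adjusted p from limma with Benjamini-Hochberg adjustment over all probes. A gene is said to have risen, fallen or been called where this adjusted p was under 0.05. Before normalization the arrays differed in brightness. Their 75th percentile of processed signal was 394 to 710 for heart allografts and 1021 to 1247 for heart controls. For the liver it was 338 to 478 at POD5, 384 to 454 at POD8 and 92.1 to 226 for controls, where liver control 1 was the dimmest. The 3 heart allograft arrays shared 1 slide and the 3 heart control arrays another, so in the heart the slide cannot be told apart from the group. Liver POD5 arrays shared no slide with liver controls or POD8 arrays, nor did heart controls with liver controls. These comparisons too were made between slides, while liver POD8 and liver control arrays shared 1 slide. The cardiomyocyte list was well above background with 7 of 7 markers on all heart arrays, and the hepatocyte list with 5 of 5 on all liver arrays, as the labels name the tissues. On the heart arrays 1 of the 5 hepatocyte markers was well above background on all 3 arrays of each group, and on the liver arrays 3 of the 7 cardiomyocyte markers were.

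Of the 78 members, 60 (76.9%) were well above background on at least 1 array, against 77.4% of all genes, and 31 were so on all 15 arrays. The 18 members above background on no array were Il17a, Il17b, Il19, Il1bos, Il1f5, Il1f6, Il1rapl2, Il20, Il22, Il22ra2, Il23a, Il23r, Il25, Il31, Il5, Il5ra, Il9 and Il9r. Most of these are cytokines of T helper or epithelial cells. Members were above background on all 3 arrays in 45 cases in the heart allografts and in 46 in the heart controls, and in 48, 49 and 32 cases in the liver at POD5, at POD8 and in the controls. On single arrays, 56.2% to 67.0% of all probes were so in heart allografts and 68.8% to 70.5% in heart controls. In the liver this share was 58.2% to 66.3% in allografts and 52.5% to 57.0% in controls.

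In the heart, 23 members rose and 5 fell in the allografts, where 15.4% of all genes tested rose and 15.4% fell. The allograft arrays all lay above the control arrays for 35 members and all below them for 10, against 29.9% and 24.2% of all genes. In the liver at POD5, 7 members rose and 0 fell, where 2.5% of all genes rose and 0.808% fell. Here 21 members lay wholly above and 13 wholly below the controls, against 12.2% and 19.6% of all genes. At POD8, 10 members rose and 0 fell, with 3.55% and 1.54% of all genes called in these directions, and 24 members lay wholly above and 12 wholly below the controls, against 11.9% and 19.8% of all genes. The count of 0 lower members in the liver depends on the setting. With 1 limma fit of 5 groups 2 members were lower at POD5 and 3 at POD8, and at POD8 1 was lower with the slide as a random block, 4 without control 1 and 2 without control 3. At an unadjusted p under 0.05 limma had 5 lower members at POD5 and 10 at POD8, where 10.9% and 12.6% of all genes were lower so, and the methods' t-test after adjustment had 0 lower at either time. The median difference of the members was 0.38 in the heart against 0.03 for all genes, 0.09 against -0.08 in the liver at POD5 and 0.02 against -0.11 at POD8.

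When each array was scaled to its 75th percentile instead of quantile normalized, the median of all probes moved to 0.47 for the heart, to -0.38 for liver POD5 and to -0.46 for liver POD8. The split of members called then changed from 23 higher and 5 lower to 41 and 4 in the heart, from 7 and 0 to 10 and 0 in the liver at POD5, and from 10 and 0 to 19 and 18 in the liver at POD8. Of all probes called, the share higher changed from 48.8% to 74.2% in the heart and from 71.0% to 18.4% in the liver at POD8.

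**Figure D1:**
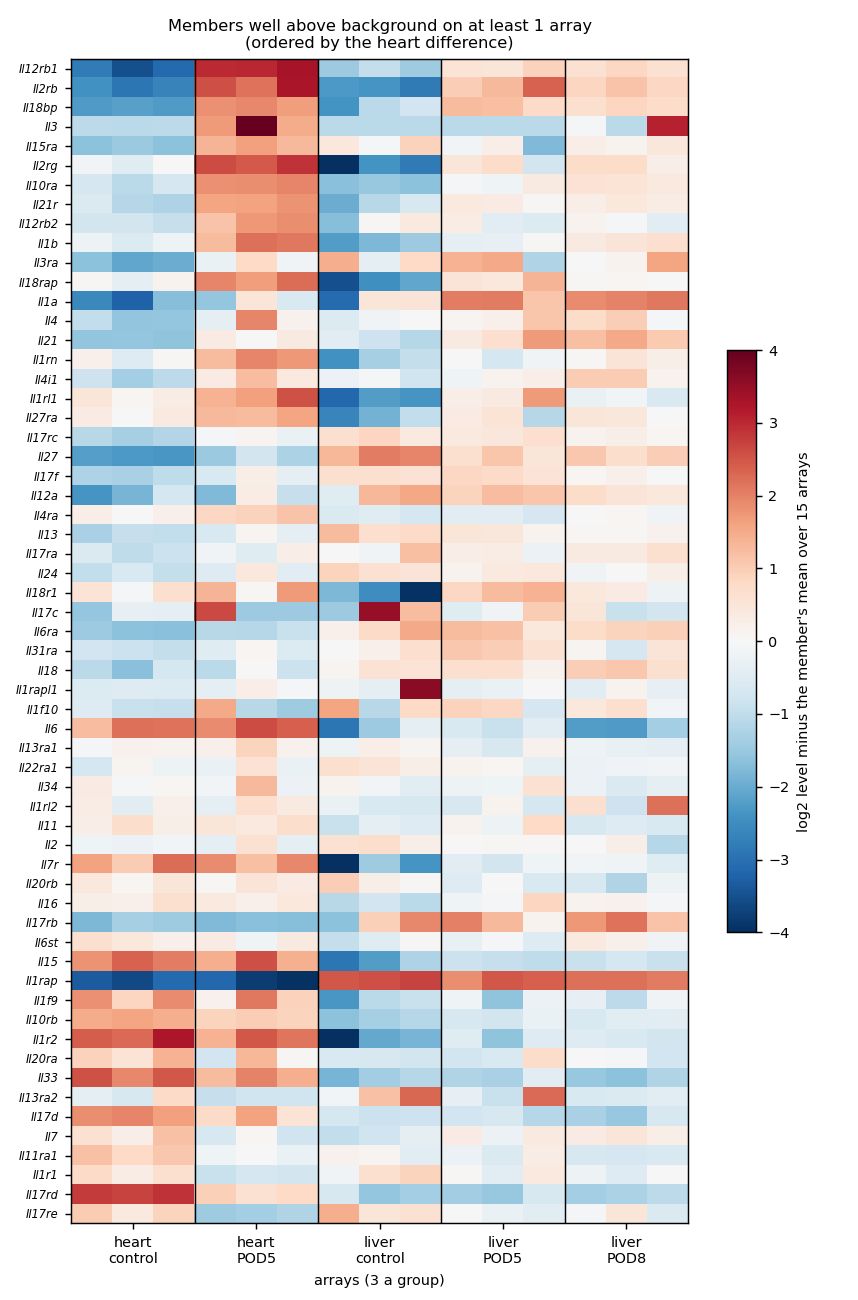
Level of each of the 60 members well above background on at least 1 array, drawn as the log2 level minus the member's own mean over the 15 arrays (colour, from -4 to 4), with the 3 arrays of each group side by side and the members ordered by their heart difference. Il12rb1, Il2rb and Il18bp stand at the top with red heart allograft columns and blue heart control columns, and Il17rd and Il17re stand at the bottom.

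The 6 members called higher in the heart and at both liver time points were Il10ra, Il12rb1, Il18rap, Il1b, Il1rl1 and Il2rb. All but Il1b encode receptor chains. They were 7.69% of the members, against 1.32% of all genes called higher in all 3. The liver comparisons share their controls, so these calls are not independent of one another. In all, 31 members (39.7%) were called in at least 1 of the 3 allograft comparisons, against 33.7% of all genes. Counting a call on any probe of a gene gave 27 higher and 6 lower members in the heart, 7 and 0 in the liver at POD5, and 12 and 0 at POD8. Leaving out each array in turn, 22 of the 28 heart calls were kept in every fit, but 0 of 7 in the liver at POD5 and 2 of 10, Il10ra and Il2rb, at POD8.

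**Figure D2:**
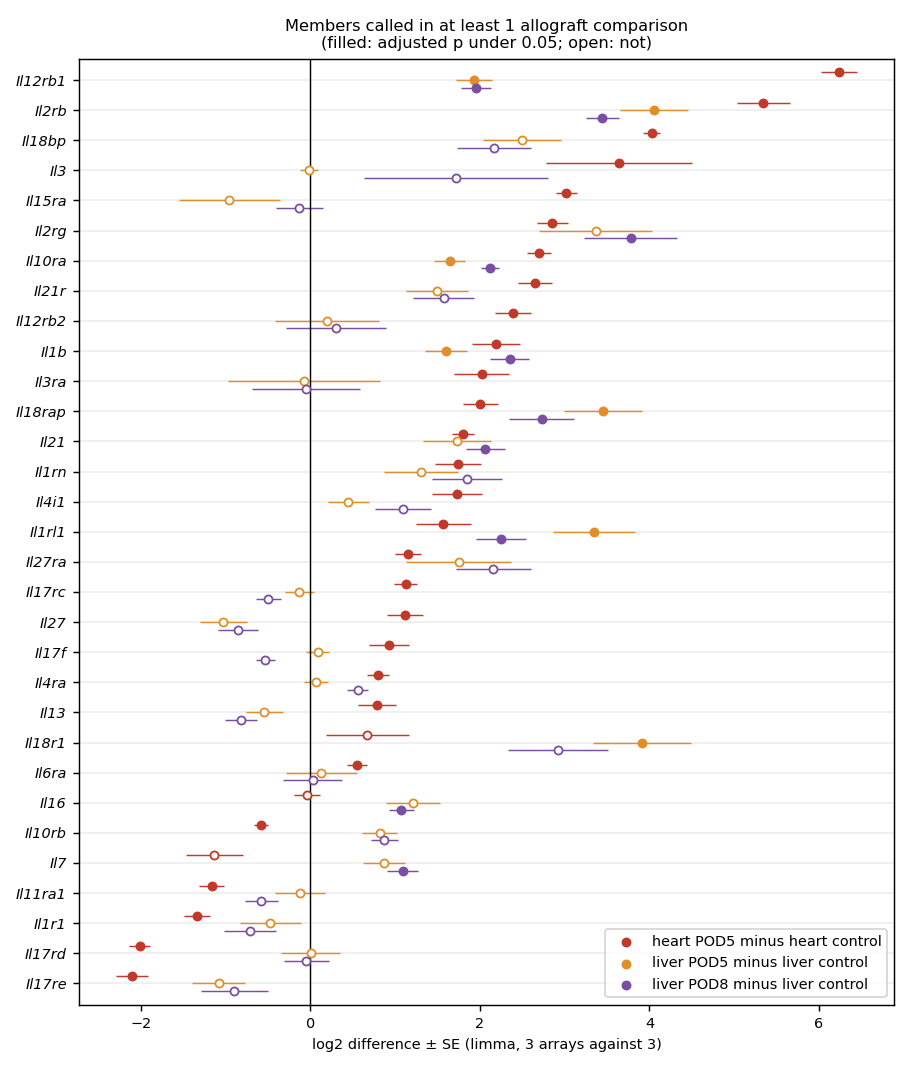
Log2 difference from the organ's controls (points) with its SE (bars) for the 31 members called in at least 1 allograft comparison, for heart POD5, liver POD5 and liver POD8, with filled points for an adjusted p under 0.05 and open points otherwise. The heart differences run from 6.24 for Il12rb1 to -2.10 for Il17re, and Il18r1 is the member where a filled liver point lies farthest to the right of an open heart point.

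The receptors of the common gamma chain cytokines had 5 of 7 members higher in the heart and 0 lower, with a median difference of 2.65. Of all genes, 15.4% rose and 15.4% fell there, with a median of 0.03. Il2rb encodes the beta chain shared by the receptors of interleukin 2 and interleukin 15. It stood at 12.26, 11.87 and 12.96 on the heart allograft arrays and at 7.27, 6.79 and 7.003 on the heart control arrays. In the liver its level was 10.66, 10.99 and 12.05 at POD5, 10.54, 10.83 and 10.504 at POD8 and 7.37, 7.33 and 6.84 in the controls. Every allograft array lay at least 3 log2 units above every control array of its organ. The difference was 5.34 ± 0.31 (SE), or 40.6-fold, in the heart (adjusted p = 0.000792), 4.05 ± 0.40, or 16.6-fold, in the liver at POD5 (adjusted p = 0.0161) and 3.44 ± 0.19, or 10.9-fold, at POD8 (adjusted p = 0.00262). At POD5 the liver call was lost without allograft 1, allograft 2 or control 2, with differences from 3.64 to 4.34 over the leave-out fits.

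Il2rg encodes the common gamma chain itself. Its heart levels were 11.37, 11.22 and 11.64 in allografts and 8.63, 8.26 and 8.77 in controls, a rise of 2.85 ± 0.18 (adjusted p = 0.001). Liver levels were 9.23, 9.49 and 8.02 at POD5 and 9.47, 9.47 and 9.03 at POD8, above controls at 4.36, 6.36 and 5.92. The liver groups did not overlap, and the lowest control was liver control 1. At POD8 the rise was 3.78 ± 0.55 (adjusted p = 0.0292), lost without control 3 or any of the POD8 arrays, with differences from 3.18 to 4.17. At POD5 the difference of 3.36 ± 0.66 did not pass the threshold (adjusted p = 0.0664).

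Il15ra, the chain that holds interleukin 15 on the cell surface for neighbouring cells, was found at 10.502, 10.77 and 10.43 in heart allografts and at 7.50, 7.65 and 7.49 in heart controls. The rise was 3.02 ± 0.12, or 8.11-fold (adjusted p = 0.000497). Liver controls already lay at 9.55, 9.07 and 10.05, and liver allografts lay at 9.02, 9.41 and 7.37 at POD5 and at 9.40, 9.27 and 9.61 at POD8. The liver allografts overlapped the controls at both times, and the low POD5 array was allograft 3, the liver array that shared a slide with the heart allografts. Neither liver difference was called, with -0.95 ± 0.60 (adjusted p = 0.426) and -0.13 ± 0.28 (adjusted p = 0.805). Il15, the ligand, was not called in any allograft comparison. It lay between 8.29 and 9.47 in heart allografts and between 8.66 and 9.25 in heart controls, and in the liver between 5.86 and 6.19 in allografts and between 3.98 and 5.65 in controls.

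Il21r, the receptor of a cytokine made by helper T cells, lay at 9.68, 9.71 and 9.91 in heart allografts and at 7.52, 6.95 and 6.86 in heart controls, a rise of 2.65 ± 0.20 (adjusted p = 0.00135). In the liver it lay at 8.49, 8.44 and 8.14 at POD5, 8.37, 8.52 and 8.39 at POD8 and 6.12, 6.996 and 7.46 in controls. The liver groups did not overlap, and their differences of 1.496 ± 0.37 and 1.57 ± 0.35 were not called (adjusted p = 0.104 and 0.0771). The ligand Il21 was dim. On the heart allograft arrays it stood at 3.43, 3.07 and 3.46, well above background on 1 of 3, and on the heart control arrays at 1.51, 1.55 and 1.497, above background on none, so the called difference of 1.80 ± 0.13 (adjusted p = 0.00124) gives only a bound of at least 1.81-fold. At POD8 in the liver Il21 stood at 4.29, 4.62 and 4.13 against 2.63, 2.26 and 1.96, above background on 3 of 3 arrays and on 0 of 3. That rise of 2.06 ± 0.23 (adjusted p = 0.0147) gives a bound of at least 1.01-fold and was lost without any of the POD8 arrays, with differences from 1.92 to 2.29. Bounds set the mean of the brighter group against the higher of each dim array's own signal and its lowest signal among probes well above background.

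Il4ra, the chain shared by the receptors of interleukin 4 and interleukin 13, was bright in every group. It lay at 12.71, 12.81 and 13.03 in heart allografts and at 12.17, 11.90 and 12.09 in heart controls. The rise of 0.80 ± 0.13 (adjusted p = 0.00882) was small beside those of the other chains, and the arrays of each group lay within 0.4 log2 units of one another. In the liver its differences of 0.07 ± 0.14 at POD5 and 0.56 ± 0.12 at POD8 were not called (adjusted p = 0.825 and 0.068).

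Il7r, carried by resting and memory T cells, showed no call in the heart, with 7.54, 6.84 and 7.55 in allografts and 7.23, 6.65 and 7.87 in controls, groups that overlapped. Liver levels were 5.19, 4.89 and 5.45 at POD5 and 5.53, 5.47 and 5.13 at POD8, against 1.65, 4.20 and 3.28 in controls, which were not above background on any array. The groups did not overlap, with bounds of at least 1.75-fold (POD5) and at least 2.01-fold (POD8), and neither difference was called (adjusted p = 0.166 and 0.123). These bounds rest on the brightest probe. A second Il7r probe, above background on 8 arrays, gave 0.48 at POD5 and 0.19 at POD8 (adjusted p = 0.656 and 0.859). The ligand Il7, a survival signal from stromal cells, was called higher in the liver at POD8. It stood at 3.85, 4.02 and 3.78 against 2.54, 2.73 and 3.12 in controls, a difference of 1.09 ± 0.18 (adjusted p = 0.0406) for which no bound above 1-fold can be given, since no control array was above background. The call was lost without control 1, control 2 or any of the POD8 arrays, with differences from 0.97 to 1.25, and under 75th percentile scaling. A dimmer Il7 probe, above background on no array, gave -0.46 at POD8. The cytokines Il2 and Il4 were not called in any allograft comparison on their brightest probes. Another Il2 probe, above background on 2 arrays, was called higher in the heart with 2.02 (adjusted p = 0.0377), while the brightest gave 0.11.

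Il12rb1, the chain shared by the receptors of interleukin 12 and interleukin 23, had the largest heart difference of all members. It was at 11.09, 11.09 and 11.40 in heart allografts and at 5.30, 4.58 and 4.97 in heart controls. Among liver arrays it was at 8.63, 8.56 and 9.0 at POD5, at 8.68, 8.90 and 8.69 at POD8 and at 6.62, 7.12 and 6.67 in controls. Allografts lay above controls in each comparison, and the heart controls lay below the liver controls. The heart difference was 6.24 ± 0.21, or 75.5-fold (adjusted p = 0.000358), against 1.93 ± 0.21, or 3.80-fold, in the liver at POD5 (adjusted p = 0.0192) and 1.95 ± 0.18, or 3.88-fold, at POD8 (adjusted p = 0.00863). The POD5 liver call was lost without any of its allografts or control 3, with differences from 1.79 to 2.08, and the POD8 call without POD8 allograft 1 or 2, with differences from 1.87 to 2.10.

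Il12rb2, the signalling chain of the interleukin 12 receptor, was dimmer. It was at 4.14, 4.74 and 4.86 in heart allografts, well above background on 3 of 3 arrays, and at 2.26, 2.25 and 2.06 in heart controls, above background on none. The rise of 2.39 ± 0.21 (adjusted p = 0.00186) gives a bound of at least 4.32-fold. In the liver it was above background on 1 of 9 arrays, and no call was made. Il12a, a subunit of interleukin 12, was not called in any allograft comparison, with 2.65, 4.71 and 3.48 in heart allografts and 2.07, 2.57 and 3.72 in heart controls.

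Il18bp, a secreted protein that binds and neutralizes interleukin 18, had the smallest adjusted p of all members in the heart. Its levels were 13.41, 13.51 and 13.28 in heart allografts and 9.34, 9.44 and 9.34 in heart controls. The difference of 4.03 ± 0.10, or 16.3-fold (adjusted p = 0.000185), was larger than the spread within either group, which stayed within 0.3 log2 units. In the liver Il18bp was at 12.87, 12.81 and 12.36 at POD5, at 12.25, 12.45 and 12.33 at POD8 and at 9.22, 10.51 and 10.81 in controls. The liver groups did not overlap, and the lowest control was liver control 1. Neither liver difference passed the threshold, with 2.499 ± 0.46 at POD5 (adjusted p = 0.0573) and 2.16 ± 0.44 at POD8 (adjusted p = 0.06). The ligand Il18 was not called in any allograft comparison. It lay between 8.501 and 9.57 in heart allografts and between 7.91 and 8.88 in heart controls, and between 9.69 and 10.67 on the liver arrays.

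Il18r1, the ligand-binding chain of the interleukin 18 receptor, was at 8.89, 7.55 and 9.23 in heart allografts and at 8.07, 7.45 and 8.15 in heart controls, groups that overlapped, and the difference of 0.67 ± 0.49 was not called (adjusted p = 0.349). The liver arrays held it at 8.35, 8.79 and 8.91 at POD5 and at 7.94, 7.84 and 7.31 at POD8, against 5.73, 5.03 and 3.56 in controls. The liver groups were well apart, with a rise of 3.91 ± 0.58, or 15.02-fold, at POD5 (adjusted p = 0.0378) and a difference of 2.92 ± 0.59 at POD8 (adjusted p = 0.059). The POD5 call was lost without any of its allografts or control 2, with differences from 3.31 to 4.40.

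Il18rap, the signalling chain, was at 6.88, 6.6 and 7.16 in heart allografts and at 4.99, 4.55 and 5.08 in heart controls, a rise of 2.01 ± 0.21 (adjusted p = 0.00278). The corresponding liver levels were 5.46, 5.34 and 6.28 at POD5 and at 4.97, 5.01 and 4.93 at POD8, while the controls, above background on no array, read 1.40, 2.48 and 2.84. The called differences were 3.45 ± 0.46 at POD5 (adjusted p = 0.0307) and 2.73 ± 0.39 at POD8 (adjusted p = 0.0271), and the bounds were at least 2.57-fold and at least 1.56-fold. The POD5 call was lost without any of its allografts, control 2 or control 3, with differences from 3.06 to 3.79, and the POD8 call without any of the POD8 arrays or control 2, with differences from 2.33 to 3.07.

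Interferon gamma signalling acts on the gamma-activated site, TTCNNNGAA, and interferon regulatory factors bind the interferon-stimulated response element, here searched by its core GAAANNGAAA. Both were searched on both strands in the 300 bases around each start (250 before, 50 after) in RefSeq sequences of GRCm38.p6, in which 62 of the 78 members had 77 promoters. The gamma-activated site, which reads alike on both strands, was in 11 of these 77 (14.3%) and in 8.3% of all 32851 promoters. The response element core was in 3 (3.9%) and in 3.44% of all promoters. Of the members that rose in no allograft comparison, 42 had 49 promoters. Of these 49, 9 (18.4%) held a gamma-activated site and 3 (6.12%) the response element core. The sites overlap one another in no window printed here. Of the members that rose in the heart, 18 had 22 promoters, of which 1 held a gamma-activated site, that of Il12rb2, and 0 held the response element core. Of the members that rose in the liver at POD5, 4 had 7 promoters, of which 1, that of Il18r1, held the gamma-activated site, in 2 places. None of the 9 promoters of 6 members that rose at POD8 held either. Il18r1 has 3 starts in the table, and these places lie before the third of them and after the others. The sequences are shown because these are the promoters of called receptor chains that hold the letters, with the site in capitals. They are on the strand of the gene, and a match is not evidence of binding.
Il12rb2, 123 bases before the start, chr6:67376292-67376321 (minus strand): gttcccttttTTCTCAGAAccgcactaagc
Il18r1, 219 bases before the start, chr1:40465777-40465806 (plus strand): tcggggttagTTCTGGGAActgtggagctc
Il18r1, 152 bases before the start, chr1:40465844-40465873 (plus strand): agtacaggtcTTCCCAGAActgaaagcttg

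**Figure D3:**
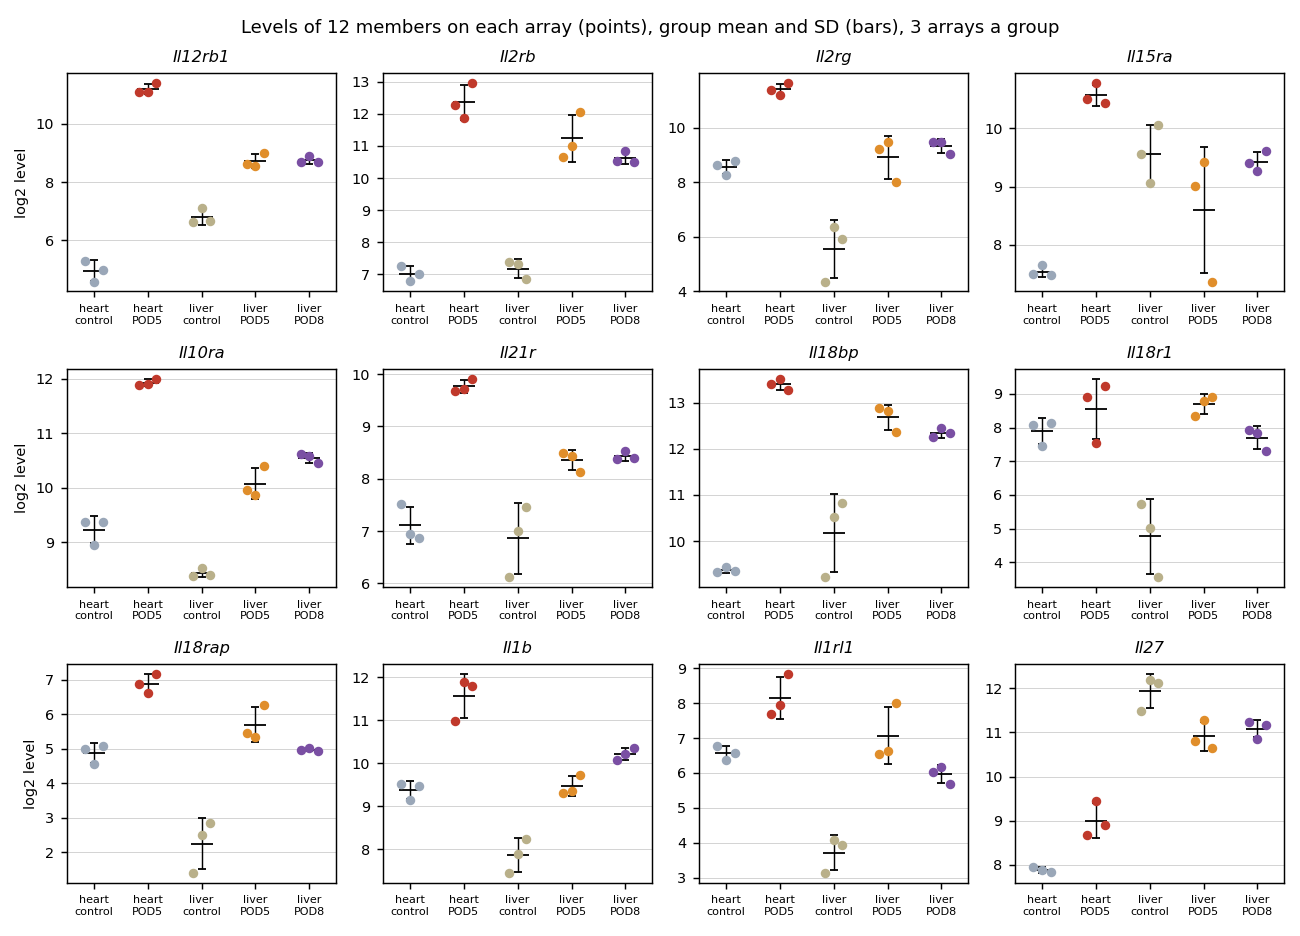
Log2 level on each array (points) with the group mean and SD (bars, n = 3) for 12 members in heart controls, heart allografts at POD5, liver controls and liver allografts at POD5 and POD8. Il12rb1 reaches 11.09 to 11.40 in heart allografts and 8.56 to 9.0 in liver allografts, Il15ra lies at 10.43 to 10.77 in heart allografts above controls at 7.49 to 7.65, and Il18r1 lies at 3.56 to 5.73 in liver controls, below every other array.

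Among the interleukin 1 family ligands and antagonists, 2 of 9 members rose in the heart and 1 of 9 at each liver time point. Il1b, the main secreted inflammatory form, was at 10.97, 11.90 and 11.81 in heart allografts and at 9.51, 9.14 and 9.48 in heart controls. Liver levels were 9.31, 9.36 and 9.73 at POD5, at 10.07, 10.22 and 10.36 at POD8 and at 7.46, 7.89 and 8.24 in controls. No allograft array overlapped its controls, and the rises were 2.19 ± 0.28, or 4.55-fold, in the heart (adjusted p = 0.00493), 1.60 ± 0.25, or 3.03-fold, in the liver at POD5 (adjusted p = 0.0425) and 2.35 ± 0.23, or 5.10-fold, at POD8 (adjusted p = 0.0103). The POD5 liver call was lost without any array of the comparison, with differences from 1.39 to 1.79, and the POD8 call without any of the POD8 arrays, with differences from 2.14 to 2.54.

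Il1rn, the receptor antagonist, lay at 10.13, 10.83 and 10.60 in heart allografts against 9.08, 8.35 and 8.91 in controls, a rise of 1.74 ± 0.27 (adjusted p = 0.00822). The liver differences, 1.31 ± 0.44 at POD5 and 1.85 ± 0.41 at POD8, were not called (adjusted p = 0.188 and 0.0757), and liver control 1 was again the lowest at 6.43. Il1a was at 2.91, 4.95 and 3.85 in heart allografts and at 1.90, 1.24 and 2.75 in controls, and its difference of 1.94 ± 0.64 was not called (adjusted p = 0.0727). In the liver it was at 6.512, 6.545 and 5.563 at POD5, at 6.359, 6.454 and 6.576 at POD8 and at 1.369, 4.946 and 4.984 in controls. Allografts did not overlap controls there, and the differences of 2.44 and 2.70 were not called (adjusted p = 0.279 and 0.217). Another Il1a probe, above background on 5 of 15 arrays, was called at 1.997 in the heart and at 1.94 in the liver at POD8. Il33, an alarmin released by damaged stromal cells, was not called in any allograft comparison, with 11.19, 11.90 and 11.38 in heart allografts and 12.48, 11.85 and 12.43 in heart controls.

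The receptors of the family moved in both directions in the heart. Il1r1, the signalling receptor of interleukin 1, was at 9.99, 10.21 and 10.15 in heart allografts and at 11.65, 11.19 and 11.53 in heart controls. It fell by 1.34 on the log2 scale (SE 0.15, adjusted p = 0.00334), and its liver differences of -0.47 ± 0.36 and -0.71 ± 0.31 were not called. Il1r2, the decoy receptor, and Il1rap, the accessory chain, were not called in any allograft comparison on their brightest probes. On its other probe, above background on 10 arrays, Il1r2 was called higher in the liver at POD8 with 2.65 (adjusted p = 0.00868), while the brightest probe gave 2.55 ± 1.06 (adjusted p = 0.243) with controls at 1.29, 4.84 and 5.02. On another of its probes, above background on 14 arrays, Il1rap was called lower in the heart with -1.19 (adjusted p = 0.0072), while the brightest gave -0.28 (adjusted p = 0.465).

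Il1rl1, the receptor of interleukin 33, is carried by type 2 lymphocytes, mast cells and regulatory T cells and also has a soluble form. On its brightest probe it was at 7.68, 7.94 and 8.83 in heart allografts and at 6.79, 6.38 and 6.58 in heart controls. Liver levels were 6.55, 6.64 and 8.002 at POD5, 6.02, 6.18 and 5.68 at POD8 and 3.14, 4.07 and 3.94 in controls, which were above background on no array. The rises were 1.57 ± 0.33 in the heart (adjusted p = 0.019), 3.35 ± 0.49 in the liver at POD5 (adjusted p = 0.0366) and 2.24 ± 0.30 at POD8 (adjusted p = 0.023), with liver bounds of at least 6.64-fold and at least 3.09-fold. The probes of Il1rl1 disagreed. A second probe, above background on 6 arrays, was called lower in the heart with -1.90 (adjusted p = 0.0432) and gave -0.01 at both liver time points. The heart call of the brightest probe was lost under the methods' t-test and without any of the 3 controls (1.23 to 1.81), the POD5 liver call without any array of the comparison (2.87 to 3.62) and the POD8 call without any of the POD8 arrays (1.97 to 2.43).

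Class II cytokine receptors had 1 of 6 members higher and 1 lower in the heart, and 1 of 6 higher at each liver time point. The heart counts are near the shares of all genes, 15.4% higher and 15.4% lower. In the liver 2.5% of all genes rose at POD5 and 3.55% at POD8. Il10ra, a chain found mainly on leukocytes, was at 11.88, 11.90 and 12.004 in heart allografts and at 9.38, 8.96 and 9.37 in heart controls. Among liver arrays it was at 9.96, 9.86 and 10.41 at POD5, at 10.62, 10.59 and 10.45 at POD8 and at 8.39, 8.52 and 8.40 in controls. The groups lay apart in each organ, with rises of 2.70 ± 0.14, or 6.48-fold, in the heart (adjusted p = 0.000706), 1.64 ± 0.18, or 3.12-fold, in the liver at POD5 (adjusted p = 0.0205) and 2.12 ± 0.11, or 4.34-fold, at POD8 (adjusted p = 0.00221). The POD5 liver call was lost without allograft 1 or 2 or control 2 or 3, with differences from 1.47 to 1.75.

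Il10rb, a widely expressed chain shared with the receptors of interleukin 22 and the type III interferons, went the other way in the heart. Heart allografts were at 12.53, 12.59 and 12.50 and heart controls at 13.10, 13.20 and 13.07, a fall of 0.58 on the log2 scale (SE 0.08, adjusted p = 0.00636) that was lost under 75th percentile scaling. Liver allografts lay above controls, at 10.97, 10.88 and 11.35 at POD5 and 11.00, 11.19 and 11.18 at POD8 against 9.99, 10.29 and 10.48. Those differences of 0.82 ± 0.21 and 0.87 ± 0.16 were not called (adjusted p = 0.111 and 0.0502).

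Il27, the alpha subunit that pairs with the product of Ebi3, was at 8.68, 9.44 and 8.89 in heart allografts and at 7.96, 7.88 and 7.83 in heart controls. It rose by 1.11 ± 0.21 in the heart (adjusted p = 0.0146), a call that was lost without any of the 3 controls, with differences from 0.89 to 1.28. In the liver the order was turned, at 10.80, 11.28 and 10.65 at POD5 and 11.23, 10.86 and 11.16 at POD8 against 11.496, 12.20 and 12.12 in controls, and the differences of -1.03 ± 0.27 and -0.85 ± 0.23 were not called (adjusted p = 0.123 and 0.117). Il27ra, its receptor, rose by 1.16 ± 0.15 in the heart (adjusted p = 0.00514) from 7.22, 6.88 and 7.23 to 8.17, 8.16 and 8.47. The heart call was lost in 1 fit of 5 groups. Its liver differences of 1.75 ± 0.62 and 2.16 ± 0.44 were not called (adjusted p = 0.204 and 0.0617).

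Il6, a leading acute-phase inducer, was not called in any allograft comparison. It was at 9.45, 10.18 and 9.95 in heart allografts and at 8.80, 9.76 and 9.74 in heart controls. The liver arrays held it at 6.93, 6.66 and 7.14 at POD5, at 5.30, 5.27 and 6.21 at POD8 and at 4.66, 6.09 and 7.15 in controls. The groups of each organ overlapped. Il6ra rose in the heart by 0.55 ± 0.12 (adjusted p = 0.0218), a call lost in 1 fit of 5 groups and without allograft 3, control 2 or control 3, with differences from 0.46 to 0.61. Il6st, the signalling chain of the family, was not called. Il11ra1, the interleukin 11 receptor, fell by 1.17 on the log2 scale in the heart (SE 0.14, adjusted p = 0.00416), from 14.82, 14.44 and 14.71 to 13.46, 13.65 and 13.35.

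The interleukin 17 receptors showed the other falls of the heart. Il17re, the receptor of the epithelial cytokine interleukin 17C, was at 3.94, 4.005 and 4.16 in heart allografts and at 6.37, 5.76 and 6.27 in heart controls. It fell by 2.10 on the log2 scale (SE 0.19, adjusted p = 0.00185), and it was well above background on 2 of 3 allograft arrays. Il17rd, known as an inhibitor of fibroblast growth factor signalling, was at 7.16, 6.80 and 7.01 against 9.01, 8.91 and 9.10 on its brightest probe, a fall of 2.02 (SE 0.12, adjusted p = 0.00088). A second Il17rd probe, also above background on all 15 arrays, gave 0.73 in the heart (adjusted p = 0.0895), so that the fall rests on 1 probe. Il17rc, the chain that pairs with Il17ra, rose by 1.13 ± 0.14 (adjusted p = 0.00409), from 10.77, 10.54 and 10.69 to 11.79, 11.997 and 11.60. Il17ra was not called in any allograft comparison. Of the cytokines of this family, Il17f was called higher in the heart with 0.93 ± 0.23 (adjusted p = 0.0342), at 3.43, 4.25 and 3.66 against 2.80, 2.74 and 3.02, but was well above background on 1 of 3 arrays in each group. The call was lost without allograft 3 or any control (differences from 0.69 to 1.1), under the methods' t-test and under normexp background correction.

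Among interleukin 3, interleukin 5, interleukin 13 and their receptors, 3 of 7 members rose in the heart and 0 of 7 in the liver. Il3, a growth factor for blood cell progenitors and mast cells, was at 3.87, 6.74 and 3.67 in heart allografts. Every heart control, every liver POD5 array and every liver control read between 1.09 and 1.12, not above background, and the POD8 arrays read 2.11, 1.12 and 5.25. The called heart difference of 3.64 ± 0.86 (adjusted p = 0.0281) gives a bound of at least 4.90-fold, which falls to at least 2.47-fold without allograft 2, the brightest array. The call was lost without any of the 3 controls (2.72 to 4.20), under the methods' t-test and under normexp background correction. Il3ra rose by 2.02 ± 0.32 (adjusted p = 0.00868, lost in 1 fit of 5 groups), from 9.27, 8.85 and 8.94 to 10.64, 11.71 and 10.77. On the liver arrays it ran from 9.71 to 12.50 and was not called. Il13, a type 2 cytokine, was called in the heart with 0.78 ± 0.22 (adjusted p = 0.047), at 4.55, 5.28 and 4.79 against 3.87, 4.23 and 4.17, and the call was lost under the methods' t-test and without allograft 3 or any control, with differences from 0.58 to 0.95.

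Il16, a chemoattractant for CD4 T cells, was not called in the heart, with 8.72, 8.53 and 8.75 against 8.59, 8.55 and 8.98. In the liver it rose by 1.07 ± 0.14 at POD8 (adjusted p = 0.0241), from 7.22, 7.57 and 7.26 to 8.48, 8.499 and 8.30, a call lost without any of the POD8 arrays, with differences from 1.01 to 1.18. At POD5 it was at 8.18, 8.28 and 9.21, and its difference of 1.21 ± 0.32 was not called (adjusted p = 0.12). Il4i1, a secreted amino acid oxidase of myeloid cells that is not an interleukin, rose by 1.73 ± 0.30 in the heart (adjusted p = 0.0109), from 6.45, 5.93 and 6.22 to 7.61, 8.52 and 7.66. Il34, a ligand of the macrophage growth factor receptor, was not called in any allograft comparison. On their brightest probes, neither were the other 15 members above background on at least 1 array, Il11, Il13ra1, Il13ra2, Il17c, Il17d, Il17rb, Il1f10, Il1f9, Il1rapl1, Il1rl2, Il20ra, Il20rb, Il22ra1, Il24 and Il31ra. A second Il13ra1 probe, above background on all 15 arrays, was called higher in the heart with 0.64 (adjusted p = 0.0202), and so was an Il24 probe above background on no array with 1.21 (adjusted p = 0.0274). On the brightest probes the heart differences ran from -0.85 for Il17d to 0.67 for Il24. In the liver they ran from -1.23 for Il1rapl1 to 0.82 for Il11 at POD5 and from -1.64 for Il13ra2 to 1.27 for Il17rb at POD8.

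Whether the heart and liver responses at POD5 differed was tested as the heart difference minus the liver difference in a limma fit of 12 arrays. The donor and recipient strains and the site of the graft differed with the organ, so they cannot be told apart from it. Of the 78 members, 8 had a higher heart response and 4 a lower one, where 6.71% and 7.17% of all genes were called so. With the slide as a random block the calls of Il10rb, Il12rb1, Il15ra, Il17rc, Il17rd and Il27 were kept, and those of Il10ra, Il13, Il18r1, Il3, Il4ra and Il7 were lost. With 75th percentile scaling, which moved the median of all probes to 0.64, the split was 28 and 8, and of all probes called the share higher changed from 46.9% to 82.3%. Il12rb1 differed by 4.31 ± 0.31 (adjusted p = 0.000163), with 6.24 in the heart and 1.93 in the liver. Il15ra differed by 3.97 ± 0.64 (adjusted p = 0.00567), and it was raised in the heart alone, to a level above that of the liver arrays. Il27 differed by 2.14 ± 0.36 (adjusted p = 0.00667) and Il17rc by 1.26 ± 0.23 (adjusted p = 0.00935), and both had lower levels in heart controls than in liver controls. Il10ra differed by 1.05 ± 0.25 (adjusted p = 0.0222), a call lost without heart allograft 3 or liver allograft 1, with differences from 0.92 to 1.22.

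In the other direction, Il18r1 differed by -3.24 ± 0.80 (adjusted p = 0.0267), with 0.67 in the heart and 3.91 in the liver. Heart controls lay at 7.45 to 8.15 and liver controls at 3.56 to 5.73, so that allografts of both organs reached like levels from different control levels. The call was lost without heart control 1, heart control 3, liver allograft 2 or liver allograft 3, with differences from -3.73 to -2.64. Il10rb differed by -1.40 ± 0.23 (adjusted p = 0.00635), since it fell in the heart and lay higher in the liver allografts. Il7 was called with -2.01 ± 0.44 (adjusted p = 0.0171), but no size can be read from it, since Il7 was above background on 0 of 3 heart allograft arrays, 0 of 3 liver control arrays and 1 of 3 liver POD5 arrays. It read 2.89, 3.60 and 2.71 in heart allografts and 4.12, 3.79 and 4.69 in heart controls. Il17rd differed by -2.02 ± 0.39 (adjusted p = 0.0111) on its brightest probe and by 1.32 (adjusted p = 0.044) on the second, so its direction depends on the probe.

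**Figure D4:**
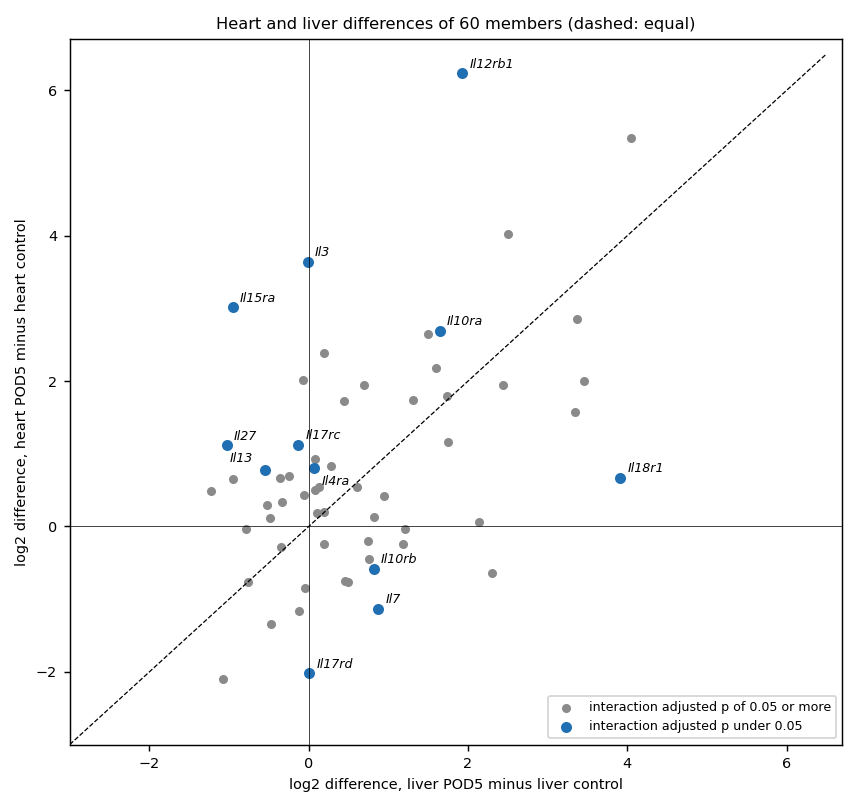
Log2 difference from controls at POD5 in the heart (vertical axis) against the liver (horizontal axis) for the 60 members well above background on at least 1 array, with blue points for an adjusted p under 0.05 of the difference between organs and a dashed line where both are equal. Il12rb1 lies at 6.24 and 1.93 and Il15ra at 3.02 and -0.95 above the line, and Il18r1 lies at 0.67 and 3.91 below it.

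Between POD5 and POD8 in the liver, 0 members were called by limma and 0.0% of all genes, and the methods' t-test also had 0. At an unadjusted p under 0.05, 3 members were higher at POD8 and 12 lower, where 5.69% and 7.5% of all genes were so. Il6 had the largest of these differences, at 6.93, 6.66 and 7.14 at POD5 and at 5.30, 5.27 and 6.21 at POD8, a difference of -1.32 (adjusted p = 0.253), and the groups did not overlap. Il1b lay higher at POD8 by 0.75 (adjusted p = 0.238) and Il18r1 lower by 0.99 (log2 difference -0.99, adjusted p = 0.261). These differences did not pass the threshold, which does not show that the time points were alike.

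Between the control organs, 23 of 78 members lay higher in the heart and 16 higher in the liver, against 24.3% and 23.4% of all genes. With 75th percentile scaling, which moved the median of all probes to -0.76, the split was 20 and 45, and of all probes called the share higher in the heart changed from 52.9% to 30.9%. Il1rap lay at 6.10, 5.83 and 6.32 in heart controls and at 11.92, 12.01 and 12.16 in liver controls, and stayed at 11.29 to 11.91 in liver allografts. Its difference of -5.94 ± 0.16 (adjusted p = 1.2e-05) was the largest toward the liver, but its direction depends on the probe. Another Il1rap probe, above background on 14 arrays, gave 2.51 (adjusted p = 0.0611), and one more, above background on none, was called higher in the heart with 0.76 (adjusted p = 0.00865). Il27 followed with -4.05 ± 0.21 (adjusted p = 9.8e-05). Toward the heart, Il1r2 differed by 5.81 ± 1.09 (adjusted p = 0.00804), Il7r by 4.21 ± 0.72, for a bound of at least 7.37-fold (adjusted p = 0.00575), Il15 by 4.19 ± 0.45 (adjusted p = 0.00113), Il33 by 3.79 ± 0.27 (adjusted p = 0.000265) and Il6 by 3.47 ± 0.69 (adjusted p = 0.00992). The Il7r call and bound rest on 1 probe, since a second, above background on 8 arrays, gave 0.52 (adjusted p = 0.505). Without liver control 1, the dimmest array, Il1r2 differed by 4.60, Il7r by 3.53, Il2rg by 2.42 and Il6 by 2.82, and each was still called. Without liver control 2, Il7r differed by 4.81, and without liver control 3, Il1r2 differed by 6.5, Il6 by 4.07 and Il18r1 by 2.52. Il33 and Il15 lay 13.8-fold and 18.2-fold higher in heart controls. For Il15 the liver controls read 3.98, 4.65 and 5.65, well above background on 2 of 3 arrays. Il18r1 (3.11), Il2rg (3.01), Il10rb (2.87) and Il1f9 (2.96, with liver controls not above background and a bound of at least 1.99-fold) were also among the larger differences toward the heart. Il17rd lay higher in the heart on its brightest probe, with 3.98, and lower on the second, with -2.01. Il3 had a control difference of 0.01 that turned to -2.38 under 75th percentile scaling, with all 6 control arrays below background.

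Of 40 genes that pair with or signal from these receptors, 25 rose and 3 fell in the heart. In the liver 6 rose and 0 fell at POD5, and 11 rose and 0 fell at POD8. Of all genes, 15.4% rose and 15.4% fell in the heart, 2.5% and 0.808% in the liver at POD5, and 3.55% and 1.54% at POD8. The median differences of the 40 genes were 1.05, 0.21 and 0.43, against 0.03, -0.08 and -0.11 for all genes. Ifng, the cytokine raised by interleukin 12 and interleukin 18, was at 13.99, 15.40 and 15.13 in heart allografts and at 4.43, 4.07 and 4.35 in heart controls, a rise of 10.56 ± 0.39 (adjusted p = 0.000432). The corresponding liver levels were 9.67, 9.93 and 10.78 at POD5, at 10.41, 10.70 and 10.46 at POD8 and at 3.53, 4.70 and 4.78 in controls, with rises of 5.79 ± 0.47 and 6.19 ± 0.37. Socs1, a feedback inhibitor of these receptors, rose by 5.82 in the heart and by 4.05 and 4.33 in the liver at the earlier and later time. Stat4, which acts below the interleukin 12 receptor, rose by 4.49 in the liver at POD5 and by 4.25 at POD8. Its heart difference of 0.97 was not called (adjusted p = 0.0963), and the heart response was lower by test (-3.52, adjusted p = 0.00816). Stat4 lay at 7.47 to 8.39 in heart controls and at 3.06 to 4.57 in liver controls, which were above background on 1 of 3 arrays. Its POD5 allograft means were 8.77 in the heart and 8.08 in the liver, so like levels were reached from different control levels. Socs3, a feedback inhibitor of interleukin 6 signalling, rose by 2.06 in the heart (adjusted p = 0.00102) with liver differences of -0.09 and 0.36, and the heart response was higher by test (2.15, adjusted p = 0.00401). Tslp fell in the heart by 0.95 on the log2 scale.

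Markers of T cells and NK cells were called higher more often than those of other leukocytes. The shares of all genes called, given above for each comparison, apply beside these counts too. In the liver, mean levels per array of the macrophage and monocyte, dendritic cell and mast cell lists lay above controls at both times. So did those of the Kupffer cell and neutrophil lists at POD8, and of the dendritic cell list in the heart. The remaining leukocyte ranges overlapped those of controls, or lay below them for neutrophils in the liver at POD5. All 8 T cell markers rose in the heart, with a mean level per array of 9.60 to 10.0 in allografts and 5.64 to 6.03 in controls, and 6 of 8 rose at each liver time point, with 9.23 to 9.64 at POD5, 8.96 to 9.26 at POD8 and 5.32 to 5.78 in controls. All 8 were above background on every heart array, and 5 of 8 on every liver control array. Of 5 NK cell markers, all 5 rose in heart allografts, 2 in POD5 liver allografts and 4 in those of POD8. Of 5 B cell markers 0 were called by limma in any of these comparisons, with a mean level per array of 5.12 to 6.42 over all groups. Of 6 macrophage and monocyte markers 1, Fcgr1, rose in the heart and 0 in the liver, where the mean level was 7.54 to 9.80 in controls and 10.6 to 11.0 in allografts. Of 4 dendritic cell markers, Xcr1 and Itgax rose and Zbtb46 fell in the heart, and Itgax rose at each liver time point. Of 5 neutrophil markers, Cxcr2 fell in the heart and Mpo and Ngp fell in the liver at POD5. The mast cell markers Cpa3 and Mcpt4 (of 5) and the Kupffer cell markers Clec4f, Vsig4 and Cd5l (of 5) fell in the heart, and Marco, also of Kupffer cells, rose in the liver at POD8. Of 4 cholangiocyte markers, Krt19, Krt7 and Sox9 fell in the heart. All 5 endothelial markers fell in the heart and so did 4 of 5 fibroblast markers. The cardiomyocyte markers Tnni3, Ryr2 and Myl2 (of 7) fell there too. Of the 5 hepatocyte markers, 2 of them above background in each heart group, Apoa1 and Ahsg fell and Cyp3a11 rose in the heart. Of the cardiomyocyte markers in the liver, Ryr2 fell and Actc1 rose at POD5, and Tnnt2 fell at POD8. The part of these cell types in the interleukin differences was not tested.

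The genes outside the family whose mean-centred levels over the 15 arrays were most like Il18bp were Calhm6 (Pearson r = 0.977), Bspry (r = 0.976) and the transcript AK142182 (r = 0.974). These values describe arrays that share organ and treatment group, and they carry no test.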

How the data were processed

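RNA of heart and liver allografts and controls was labelled with Cy3 and hybridized to single-colour Agilent arrays (design 014868 per the file headers). The authors deposited processed intensities for each spot, made per the file headers by Agilent Feature Extraction 10.5.1.1, whose correction steps are not given in the sources used here, and the headers name build mm9. Median spot and background intensities were used in 1 alternative, since the mean signals planned for it were not used here. No coordinates of the arrays were used, and promoters are of GRCm38.p6.

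From the intensities, log2 was taken, outlier spots (47 to 113 per array, with 0 saturated) were left out, repeated spots were averaged per probe, and quantile normalization was applied over all 15 arrays. Probes (41174) were named by matching accessions to a RefSeq table of GRCm38.p6 (26682 matched, 64.8%, 18213 symbols). Unmatched probes kept their own identifier and count among all genes. A probe was well above background where at least 0.5 of its spots were marked so. Comparisons were fitted with limma 3.58.1 (lmFit and eBayes, in R 4.3.3) on the arrays of the groups compared, with Benjamini-Hochberg adjustment over all probes at 0.05; the fits were tested on simulated data. Further work used Python 3.11.15, pandas 2.3.3 and matplotlib 3.10.9. The number of arrays limits the precision, and an exact permutation test of 3 against 3 cannot give a two-sided p below 0.1.

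The members, functional groups, marker and pathway lists were chosen with earlier results of these data known. Named were, in each comparison, up to 12 called members with the largest differences and no overlap between groups, a fixed list of members above background, members above background on no array and the 3 genes most like Il18bp; other called members, second probes and called markers were named after their values were seen. The 2 genes of the naming pattern that the rule left out are not reported here. The alternatives were quantile normalization per comparison, 75th percentile scaling, normexp (offset 50), a filter on dim probes, 1 fit of 5 groups, outlier spots kept, Bonferroni adjustment, the methods' t-test, a replicate block, the slide as a random block, any probe of a gene, and leaving out each array. The value within the slide shared by liver POD8 and control arrays was added after the data were seen. Replicate numbers did not pair the samples, with correlations of deviations from -0.123 to 0.089.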

Additional observations from a re-analysis of the deposited data

Results flagged for a closer look

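The response of 12 members differed between the heart and the liver at POD5 by the test of the difference itself (limma, adjusted p under 0.05). Strain pair and graft site differed with the organ and cannot be told apart from it. A higher heart response was found for Il12rb1 (4.31), Il15ra (3.97), Il3 (3.66), Il27 (2.14), Il13 (1.33), Il17rc (1.26), Il10ra (1.05) and Il4ra (0.73), and a lower one for Il18r1 (-3.24), Il17rd (-2.02), Il7 (-2.01) and Il10rb (-1.40), as heart minus liver log2 differences. With the slide as a random block 6 of the 12 calls were lost, those of Il10ra, Il13, Il18r1, Il3, Il4ra and Il7. The Il17rd value is of its brightest probe, and its second probe was called the other way (1.32, adjusted p = 0.044). Il7 was above background on no heart allograft and no liver control array, so its value gives no size. The Il3 value sets heart allografts against groups that were not above background, and its call was lost without any heart control or without liver allograft 1 or 2 (2.73 to 4.21). Calls were also lost for Il13 without heart control 1, heart control 3 or liver allograft 3 (1.13 to 1.49), and for Il4ra in all but 2 of the 12 fits that left out an array (0.65 to 0.81). The Il13, Il17rc, Il15ra, Il12rb1 and Il27 controls lay higher in the liver than in the heart. The Il10ra and Il4ra controls lay higher in the heart, although their heart response was the higher one. The Il18r1, Il10rb, Il7 and Il17rd controls also lay higher in the heart, but those of Il17rd lay lower on its second probe. The part of these control levels, and of the dimmer liver control arrays, in the differences was not tested.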

How the results depend on the processing

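The counts of members called depended on the setting more in the liver than in the heart. With 75th percentile scaling they were 45 in the heart, 37 in the liver at POD8, 36 for the difference between organs and 65 between controls. Bonferroni adjustment left 3, 0, 0, 1 and 1 calls in the heart, the liver at POD5, the liver at POD8, the difference between organs and the controls. In the liver at POD5 the dim-probe filter gave 11, 1 fit of 5 groups 19, the methods' t-test 0 and the slide as a random block 3. At POD8 normexp gave 18, the dim-probe filter 16, the fit of 5 groups 23, the methods' t-test 4, the slide as a random block 16 and the shared slide alone (2 arrays against 2) 0. The slide as a random block gave 6 for the difference between organs. Leaving out 1 array gave 0 to 6 calls in the liver at POD5 and 2 to 19 at POD8. The replicate block gave 23 calls in the heart, 0 at each liver time point, 11 for the difference between organs and 35 between controls, and it ended 5 heart calls, those of Il17f, Il1rl1, Il3, Il4i1 and Il6ra, while the samples share only a number. The POD8 against POD5 comparison had 0 calls in every setting. The Il3 control difference turned to -2.38 under 75th percentile scaling, and that of Il2 (-0.68) to 0.003 under normexp. The causes were not tested. Members near background have only bounds.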
